A study of Mus musculus with 7 samples.

Results

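Glutamine, glutamate and the transaminases were examined through 9 genes: Glul, Glud1, Gpt, Gpt2, Got1, Got2, Asns, Oat and Aldh18a1. They were chosen by symbol for their place in this pathway, with earlier results of these data known. All 9 were among the 14795 genes listed for duodenal RNA, and all 9 passed the filter on low values, a normalized count above 1 in at least 3 libraries, which 13399 genes passed. RNA was sequenced from the duodenum of 3 Ppara lox/lox control mice and 4 Ppara I-KO mice, all C57BL/6 and, by the study's methods, male littermates on high-fat diet (HFD). Both groups carried the floxed alleles (Ppar-alpha loxP/loxP in the labels). The I-KO mice carried in addition the Villin-Cre transgene, which acts from development in the epithelium of the gut, so that muscle, stroma and leukocytes in these whole-duodenum samples kept Ppara. Mice of both groups had been without food for 6 h and then refed for 6 h. The comparison asks how the loss of PPARα, a lipid-sensing nuclear receptor, from the intestinal epithelium bears on these transcripts.

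Enterocytes take up glutamine from the blood and from the meal and are among its main consumers. Glutamine gives glutamate, and the transaminases then pass the amino group of glutamate to pyruvate or oxaloacetate, giving alanine and aspartate, while the carbon enters the citric acid cycle as α-ketoglutarate. The small intestine also turns glutamate into pyrroline-5-carboxylate and on to ornithine, citrulline and proline, a route that supplies the body with citrulline. In the liver, PPARα is known to lower the transcripts of several amino acid-degrading enzymes.

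None of the 9 transcripts passed a test between the genotypes. With limma and Benjamini-Hochberg adjustment over all genes tested, 0 of 9 were called at 0.05, against 0.0299% of all genes (4 of 13399). At an unadjusted limma p below 0.05 the count was also 0 of 9, against 4.74% of all genes, and 0 of 9 passed an exact permutation test, whose smallest possible p for 3 against 4 mice is 0.0286. The log2 fold changes ran from -0.10 for Got2 to 0.25 for Glud1, with 4 above 0, 5 below, and a median of -0.0075. Their 95% intervals, which are not adjusted for the number of genes, reached a median of 0.33 to either side on the log2 scale. Differences within that range were mostly not detectable with these mice. With the adjustment over all genes tested, larger differences can go uncalled as well. All genotype fold changes are given on the scale of log2(normalized count + 1), I-KO over lox/lox.

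The normalized counts (counts scaled to an adjusted library size, abbreviated CPM) rested on an estimated 20745155 to 25865823 reads per library on the listed genes. Ppara itself was at 53.4, 49.3 and 63.2 CPM in the lox/lox mice and at 33.1, 40.6, 47.5 and 69.9 CPM in the I-KO mice. This total counts reads outside the floxed part as well and does not check the deletion, and the library labelled I-KO 4 was above every control. Fabp1, a known target of PPARα, was at 3380, 3398 and 4228 CPM in lox/lox mice and at 3215, 2109, 2544 and 2111 CPM in I-KO mice, the library labelled I-KO 4 included below every control (log2 fold change -0.57, limma adjusted p = 0.822), and was chosen for mention after its values were seen. The tissue label was checked against marker genes. Enterocyte transcripts led by Apoa4 and Apoa1 summed to between 60695 and 79833 CPM, the epithelial genes Krt20 and Vil1 were at 2671 CPM or more in each library, and Alb of liver was at most 0.62 CPM. Crypt and cycling genes led by Olfm4 and Mki67 summed to between 564 and 665 CPM in lox/lox and between 413 and 753 CPM in I-KO mice. Smooth muscle genes led by Myh11 and Acta2 summed to between 1273 and 1593 CPM in lox/lox and between 1312 and 1838 CPM in I-KO, and leukocyte genes led by Lyz2 and Ptprc to between 347 and 489 CPM over all 7. Pancreatic acinar genes without Zg16, which goblet cells also express, summed to 539 CPM in I-KO 1, to 179 CPM in lox/lox 2 and to between 81.4 and 124 CPM in the others, with Pnliprp2 next to Zg16 in level.

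Per length of annotated exon, the pathway was carried at very unequal levels. Oat was highest, with a median of 169 CPM per kb over the 7 mice (149 to 247), followed by Gpt at 131 (106 to 145). Got1 (64.9), Glud1 (51.1) and Aldh18a1 (42.3) came next, and the ranges of neighbours in this order overlapped for Got1 with Glud1 and for Glud1 with Aldh18a1. Got2 followed at 20.7, Glul at 16.4 and Asns at 10.5 CPM per kb, with no overlap between neighbours over the 7 mice. The length joins all annotated exons of a gene, not only those of the transcript present, so the order depends on it. Gpt2 was lowest at 0.842 CPM per kb (0.755 to 0.980). The duodenum held more transcript per length of the cytosolic alanine transaminase than of the mitochondrial one, and of glutamate dehydrogenase than of glutamine synthetase. In the annotation Got2 has a processed pseudogene (Got2-ps1), and Glul, Got2, Oat and Aldh18a1 overlap other genes (Teddm2 and Mir8114, Gm45760, Fgfr2, and Gm15801), so that their levels are uncertain where the counting split or dropped shared reads.

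**Figure D1:**
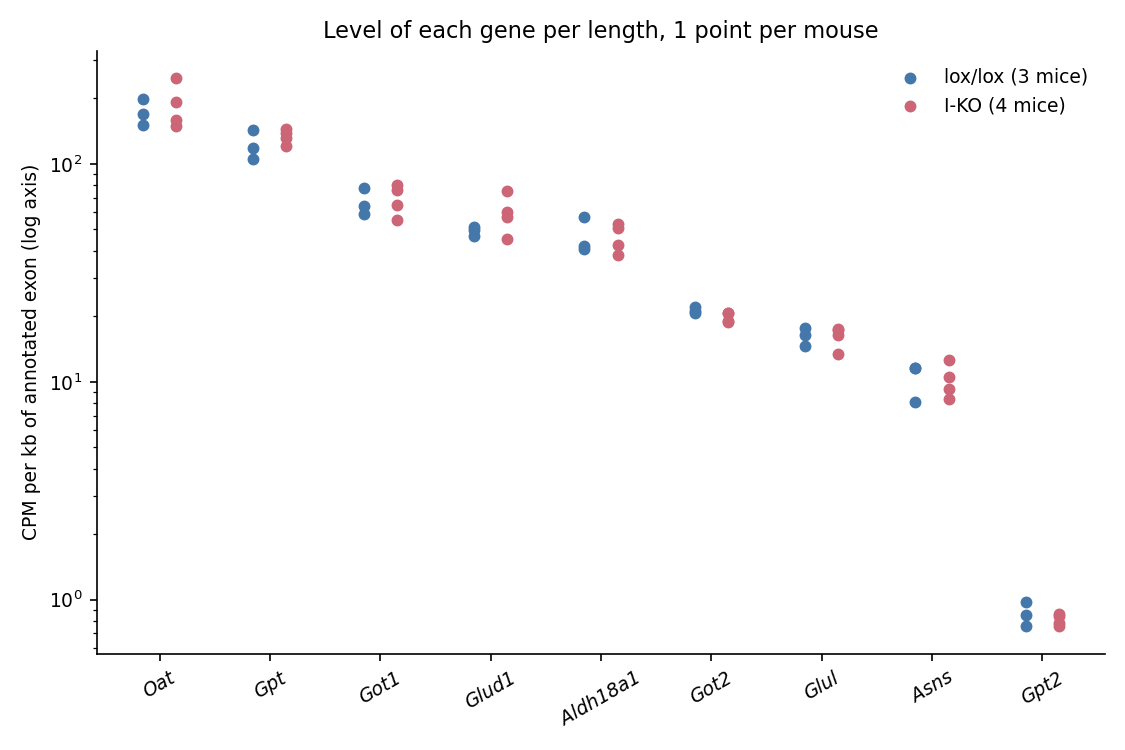
Level of each gene in CPM per kb of annotated exon on a log axis, 1 point per mouse, lox/lox in blue and I-KO in red, ordered by the median over 7 mice. Oat and Gpt are at the top and Gpt2 lies apart at the bottom, at a median of 0.842 CPM per kb, with both genotypes side by side throughout.

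Glul (chr1:153899944-153909723, plus strand, GRCm38) encodes glutamine synthetase, which joins ammonia to glutamate. Its normalized counts were 48.3, 58.55 and 54.5 CPM in lox/lox 1 to 3 and 58.3, 57.5, 44.4 and 54.4 CPM in I-KO 1 to 4. The groups overlapped, with I-KO 3 the lowest and lox/lox 2 the highest. The means were 53.8 ± 5.15 (SD, n = 3) and 53.6 ± 6.36 (SD, n = 4), and the log2 fold change of -0.0075 ± 0.12 (SE, 95% interval -0.27 to 0.26) gave a limma adjusted p of 0.997.

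Glud1 (chr14:34310727-34345265, plus strand) encodes glutamate dehydrogenase, the mitochondrial enzyme that releases ammonia from glutamate and feeds α-ketoglutarate into the citric acid cycle. It was at 215, 209 and 196 CPM in lox/lox mice and at 190, 253, 240 and 317 CPM in I-KO mice. Of the I-KO mice, 3 were above every control and 1 was below every control. Glud1 had the largest fold change of the 9 genes, 0.25 ± 0.15 (SE, 95% interval -0.09 to 0.60), with means of 207 ± 9.96 (SD, n = 3) and 250 ± 52.3 (SD, n = 4). It did not pass the limma test (adjusted p = 0.954) or the exact permutation test (p = 0.229). Without the library labelled I-KO 4 the log2 fold change was 0.13.

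Of the transaminases, Gpt and Gpt2 encode the cytosolic and the mitochondrial alanine transaminase, which move the amino group between glutamate and alanine. Gpt (chr15:76695716-76699686, plus strand) was at 420, 348 and 310 CPM in lox/lox mice and at 408, 386, 426 and 357 CPM in I-KO mice. The I-KO mice lay within the control range, apart from I-KO 3 above it. The log2 fold change was 0.14 ± 0.12 (SE, 95% interval -0.12 to 0.40, limma adjusted p = 0.954). Gpt2 (chr8:85492576-85527560, plus strand) was at 5.53, 4.80 and 4.28 CPM in lox/lox mice and at 4.26, 4.83, 4.40 and 4.75 CPM in I-KO mice. Its groups overlapped, and the log2 fold change was -0.07 ± 0.09 (SE, 95% interval -0.29 to 0.14, limma adjusted p = 0.963).

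Got1 and Got2 encode the cytosolic and the mitochondrial aspartate transaminase, both arms of the malate-aspartate shuttle that carries reducing equivalents into mitochondria. Got1 (chr19:43499752-43524605, minus strand) was at 197, 163 and 150 CPM in lox/lox mice and at 202, 165, 192 and 140 CPM in I-KO mice. Each group held high and low mice, and the log2 fold change was 0.04 ± 0.15 (SE, 95% interval -0.29 to 0.37, limma adjusted p = 0.989). Got2 (chr8:95864134-95888547, minus strand) was at 100.2, 101.6 and 105.8 CPM in lox/lox mice and at 91.1, 100.05, 92.1 and 99.99 CPM in I-KO mice. Got2 was the 1 gene of 9 whose groups did not overlap, with all 4 I-KO mice below all 3 controls, an order that 3.28% of all genes showed. Groups that did not overlap, in either direction, were found for 6.19% of all genes. I-KO 2 and I-KO 4 were less than 1 CPM below the lowest control. The means were 103 ± 2.90 (SD, n = 3) and 95.8 ± 4.89 (SD, n = 4), a ratio of 0.934, and the log2 fold change of -0.10 ± 0.08 (SE, 95% interval -0.28 to 0.08) did not pass the limma test (adjusted p = 0.954) or the exact permutation test (p = 0.114).

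The balance of the cytosolic over the mitochondrial enzyme was compared within each mouse. The ratio of Gpt to Gpt2 in CPM was 75.9, 72.5 and 72.5 in lox/lox mice and 95.8, 80.0, 96.8 and 75.1 in I-KO mice. The controls lay close together, and 3 I-KO mice were above them while I-KO 4 lay between them. The difference was 0.21 on the log2 scale (exact permutation p = 0.143, adjusted over 2 contrasts 0.286). The ratio of Got1 to Got2 was 1.97, 1.60 and 1.42 in lox/lox mice and 2.22, 1.65, 2.08 and 1.40 in I-KO mice. These overlapped, with a difference of 0.13 on the log2 scale (exact permutation p = 0.543, adjusted 0.543).

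Asns (chr6:7675169-7693254, minus strand) encodes asparagine synthetase, which takes the amide group of glutamine to make asparagine and is a known target of ATF4, the transcription factor of the amino acid response. It was at 31.6, 31.5 and 22.2 CPM in lox/lox mice and at 34.3, 28.7, 25.3 and 22.8 CPM in I-KO mice. The lowest control and the lowest I-KO mouse were nearly alike, and the groups overlapped throughout, with a log2 fold change of -0.03 ± 0.17 (SE, 95% interval -0.41 to 0.34, limma adjusted p = 0.992).

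Oat and Aldh18a1 stand on the route from glutamate to ornithine, citrulline and proline. Aldh18a1 (chr19:40550257-40588463, minus strand) encodes pyrroline-5-carboxylate synthase, which reduces glutamate, and was at 166, 172 and 233 CPM in lox/lox mice and at 172, 206, 155 and 216 CPM in I-KO mice. The highest mouse was a control and the lowest an I-KO mouse, and the log2 fold change was -0.02 ± 0.16 (SE, 95% interval -0.37 to 0.34, limma adjusted p = 0.997). Oat (chr7:132557478-132576398, minus strand) encodes ornithine aminotransferase and was at 357, 398 and 471 CPM in lox/lox mice and at 373, 454, 353 and 584 CPM in I-KO mice. Both the highest and the lowest value came from I-KO mice. The log2 fold change was 0.09 ± 0.18 (SE, 95% interval -0.31 to 0.49, limma adjusted p = 0.976), and it was -0.05 without the library labelled I-KO 4.

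**Figure D2:**
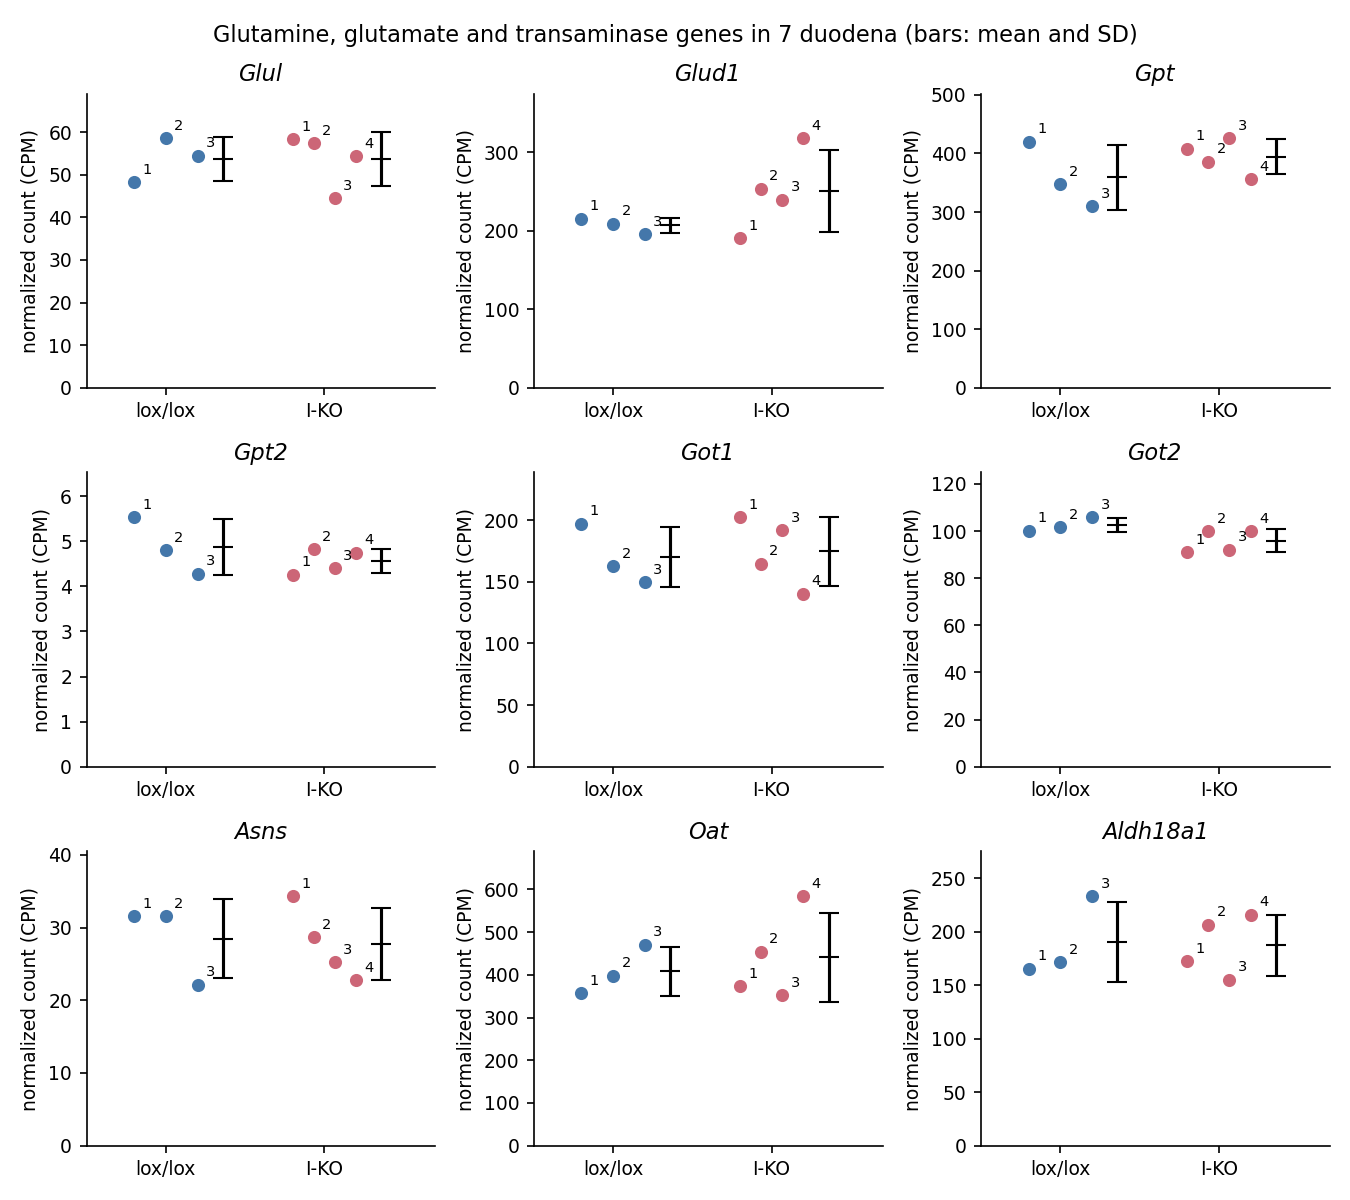
Normalized count (CPM, axes from 0) of each of the 9 genes in every mouse, lox/lox in blue and I-KO in red, numbered by replicate, with the mean and SD beside the points. The groups overlap for all genes but Got2, where the I-KO mice lie between 91.1 and 100.05 CPM and the controls between 100.2 and 105.8 CPM.

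**Figure D3:**
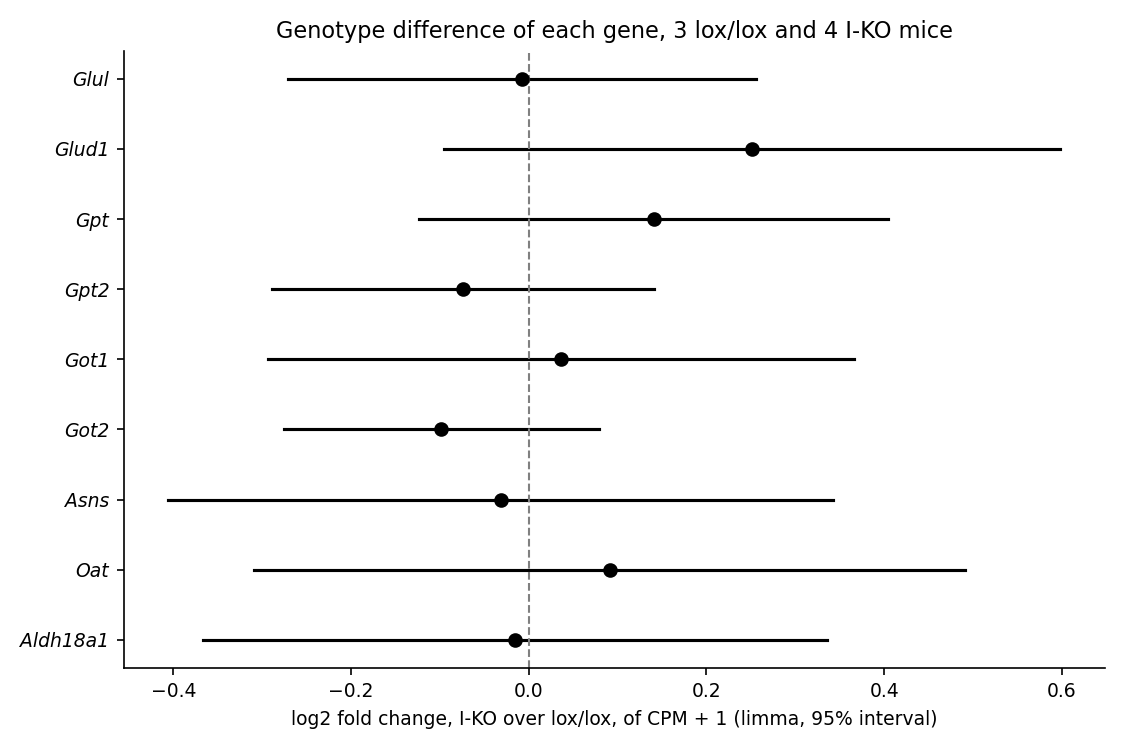
Log2 fold change of each gene, I-KO over lox/lox, as a point with its 95% limma interval as a line. All 9 intervals cross 0, and the points run from -0.10 for Got2 to 0.25 for Glud1.

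The highest mouse was between 1.16 times (Got2) and 1.67 times (Glud1) the lowest, and some of the genes ordered the mice alike. Oat was highest in I-KO 4, lox/lox 3 and I-KO 2, and so was Aldh18a1, with lox/lox 3 first. Over the 7 mice their Pearson r was 0.87 (exact permutation p = 0.0127, adjusted 0.229) and Spearman's rho 0.93 (exact p = 0.0067, adjusted 0.364), and r was 0.96 without the 2 mice farthest from the median of Oat. Oat and Got1 ran in opposite orders, with r -0.91 (exact p = 0.0038, adjusted 0.102) and rho -0.82 (exact p = 0.0341, adjusted 0.369), and r -0.93 without the 2 mice farthest from the median of Got1. Gpt and Got1 ran together, with r 0.83 (exact p = 0.0282, adjusted 0.277) and rho 0.75 (exact p = 0.0663, adjusted 0.447), and r 0.94 without the 2 mice farthest from the median of Gpt. After centring each gene on its genotype mean r was 0.89, -0.95 and 0.89 for these pairs, and 3 or 4 mice per genotype are too few for a value within each group. In all, 54 relations were computed, 36 between pairs of these genes and the others with Atf4 and Ppara, and none passed an adjusted p of 0.05, while 9 had an unadjusted p below it. The 9 include Gpt with Got2 (r -0.78), Gpt with Aldh18a1 (r -0.78) and Got1 with Aldh18a1 (r -0.83). They also include Atf4 with Oat (r -0.78) and Ppara with Asns (r -0.77). The relations share genes and the same 7 mice, so they are not independent of each other.

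Other measures varied over the same mice. The deposited columns summed to 1045790, 992602 and 969589 in lox/lox 1 to 3 and to 1028916, 1016832, 1098618 and 973413 in I-KO 1 to 4, so the mice with the highest Got1 and Gpt had the 3 highest sums. Scaled to equal sums, r was -0.87 for Oat with Got1 and 0.69 for Gpt with Got1. The crypt and cycling sum was 564, 665 and 576 CPM in lox/lox mice and 512, 712, 413 and 753 CPM in I-KO mice, highest in I-KO 4 and lowest in I-KO 3, as Oat was. Of its genes, Olfm4 (273 CPM) and Ccnb1 were highest in I-KO 4, Top2a in lox/lox 2 and the others in I-KO 2. Lgr5 and Ascl2 were lowest in lox/lox 3 and the others in I-KO 3. The enterocyte sum was 73530, 61544 and 68376 CPM and 77446, 60695, 79833 and 64450 CPM in the same order, with I-KO 3, I-KO 1 and lox/lox 1 highest, the mice that were also highest for Got1 and Gpt. In I-KO 1, Apoa4 at 31200 CPM and Apoa1 at 19138 CPM made up most of this sum. Sis of the same list was lowest in I-KO 1, at 1735 CPM, and not every gene of the list put these mice highest. The part of these sums in the relations was not tested. In whole tissue, fewer cells of a type and less RNA per cell cannot be told apart.

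Asns followed Atf4 most closely. Atf4 was at 229, 241 and 172 CPM in lox/lox mice and at 233, 216, 201 and 160 CPM in I-KO mice, and I-KO 4 and lox/lox 3 were the lowest mice for both genes. Pearson's r was 0.94 (exact permutation p = 0.0020, adjusted 0.102) and Spearman's rho 0.86 (exact p = 0.0238, adjusted 0.369), with r 0.90 without the 2 mice farthest from the median of Atf4, 0.95 after centring on genotype and 0.94 with equal column sums. It had the largest Pearson r, regardless of sign, of the 54 relations over the 7 mice and did not pass the adjustment. Oat with Aldh18a1 had the larger rho and the larger r without the 2 farthest mice, and Oat with Got1 the larger r in size after centring.

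**Figure D4:**
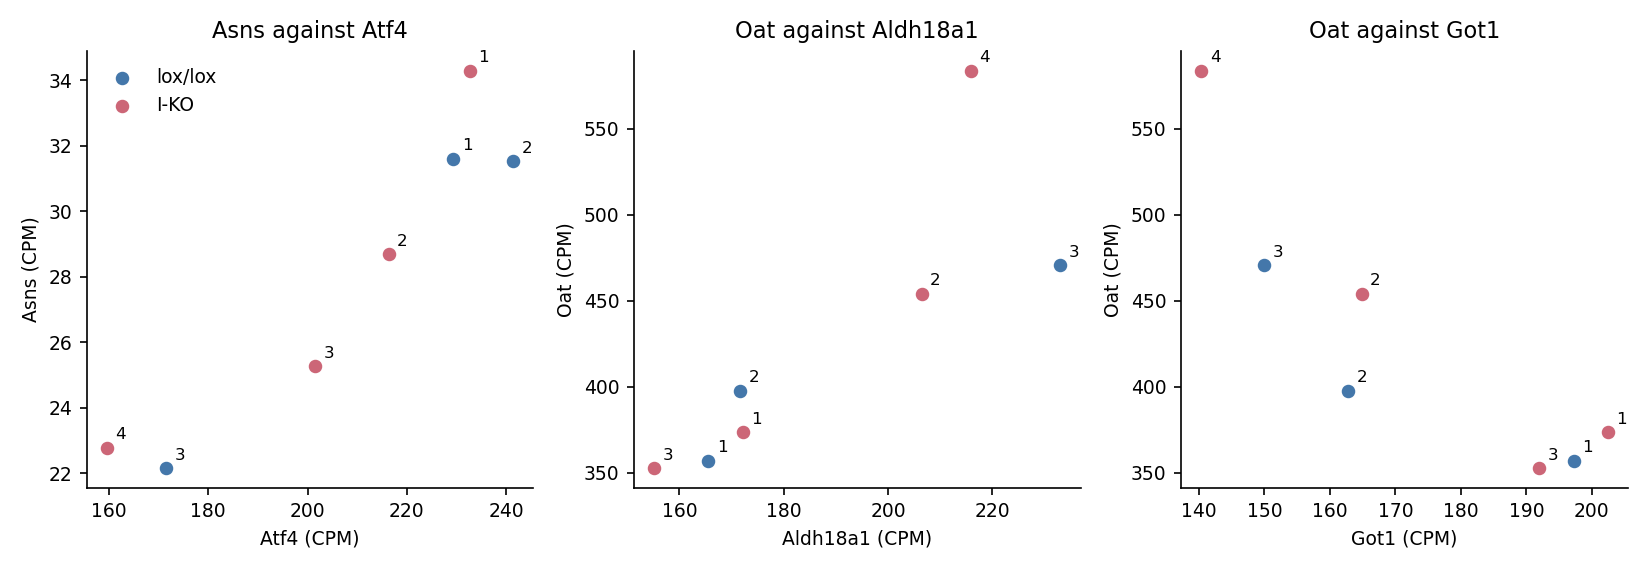
Normalized counts (CPM) of 3 pairs of genes in the 7 mice, lox/lox in blue and I-KO in red, numbered by replicate, with axes that do not start at 0. Asns rises with Atf4 (r 0.94) and Oat with Aldh18a1 (r 0.87), Oat falls with Got1 (r -0.91), and both genotypes lie along the same trends.

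The promoters of the genes were read for the letters of sites of ATF4 and of nuclear receptors. RefSeq sequence on GRCm38.p6, from 250 bases before to 50 after the annotated start, was matched by symbol for 8 of the 9 genes, without Gpt. Searched on both strands, the composite site of ATF4 and C/EBP (TGATGNAA) was present in Asns and Got1, 2 of 8, against 3.97% of 32851 promoters. The nuclear receptor half-site AGGTCA was present in Glul, Got1 and Got2, 3 of 8, against 16.3% of all promoters. The DR1 element of PPARα with RXR, searched as AGGNCA repeated after a gap of 1 base, which can hold the half-site, was found in 0 of 8 windows against 0.381% of all. The 4 promoters with a match are shown 5′ to 3′ on the strand of the gene, with the matches in capitals. Positions are given from the start site of these windows, which for Asns, Got2 and Glul is not the start of the gene coordinates given above. The ATF4 letters start 23 bases before the start site in Asns and 102 before it in Got1, there on the opposite strand. The half-site starts 57 bases before it in Glul, 244 in Got1 and, on the opposite strand, 103 in Got2. By the gene coordinates above, the matches of Asns and Got2 lie inside the gene.
Asns, chr6:7693160-7693459, minus strand: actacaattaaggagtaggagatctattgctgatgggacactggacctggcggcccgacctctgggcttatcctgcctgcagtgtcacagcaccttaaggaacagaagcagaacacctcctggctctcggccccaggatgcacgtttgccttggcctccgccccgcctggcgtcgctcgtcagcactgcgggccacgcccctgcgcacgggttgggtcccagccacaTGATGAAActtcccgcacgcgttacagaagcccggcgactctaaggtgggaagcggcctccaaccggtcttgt
Got1, chr19:43524556-43524855, minus strand: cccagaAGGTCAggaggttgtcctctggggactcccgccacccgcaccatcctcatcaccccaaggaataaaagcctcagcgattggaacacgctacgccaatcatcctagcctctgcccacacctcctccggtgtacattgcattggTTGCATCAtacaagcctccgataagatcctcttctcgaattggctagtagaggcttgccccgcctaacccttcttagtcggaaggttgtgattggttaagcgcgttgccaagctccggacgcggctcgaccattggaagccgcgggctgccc
Got2, chr8:95888352-95888651, minus strand: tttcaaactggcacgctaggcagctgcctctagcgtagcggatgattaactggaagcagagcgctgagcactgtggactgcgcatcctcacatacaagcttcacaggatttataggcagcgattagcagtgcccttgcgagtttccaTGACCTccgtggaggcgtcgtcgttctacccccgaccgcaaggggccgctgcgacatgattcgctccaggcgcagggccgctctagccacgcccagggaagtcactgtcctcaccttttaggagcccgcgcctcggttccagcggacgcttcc
Glul, chr1:153899679-153899978, plus strand: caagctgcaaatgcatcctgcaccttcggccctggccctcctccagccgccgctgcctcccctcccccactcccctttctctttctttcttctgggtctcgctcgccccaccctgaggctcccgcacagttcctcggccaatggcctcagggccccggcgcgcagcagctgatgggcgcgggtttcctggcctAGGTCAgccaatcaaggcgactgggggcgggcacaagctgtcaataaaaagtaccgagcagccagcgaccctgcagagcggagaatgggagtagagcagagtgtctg
A match describes letters only, and a window without one says nothing of the factor. Got1, which holds the ATF4 letters as Asns does, had an r with Atf4 of 0.72 (exact permutation p = 0.0806, adjusted 0.334). Without the 2 mice farthest from the median of Atf4 it was -0.16, over a smaller range of Atf4. What the relation of Got1 with Atf4 rests on was not tested.

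The genes around this pathway were read from 6 lists. Of their 75 genes in the table, 68 passed the filter and 0 were called by limma at an adjusted p of 0.05, while 5 had an unadjusted p below it, as 4.74% of all genes did, Prodh, Ccbl1 and Trib3 with higher and Ggct and Slc7a11 with lower means in I-KO mice. The fold changes were above 0 for 39 and below 0 for 29, with a median of 0.02, and 49.4% of all genes were below 0.

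Of glutamine entry, the enzymes that use its amide group and the asparaginases, 13 of 14 genes were tested and 0 were called in either direction, with 6 above and 7 below 0 and a median of -0.04. Asrgl1, an asparaginase, was at 3.70, 4.12 and 4.13 CPM in lox/lox mice and at 4.50, 4.40, 4.56 and 5.50 CPM in I-KO mice, all I-KO mice above all controls, an order that 2.91% of all genes showed. Its log2 fold change was 0.20 (limma adjusted p = 0.954).

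Of the genes of proline, ornithine, citrulline and arginine, 13 of 16 were tested and 0 were called in either direction, with 9 above and 4 below 0 and a median of 0.06. Prodh, proline dehydrogenase, had the smallest p, at 46.1, 38.2 and 32.3 CPM in lox/lox and 46.8, 50.4, 50.5 and 42.5 CPM in I-KO mice (log2 fold change 0.29, limma adjusted p = 0.954). Cps1, which makes carbamoyl phosphate for citrulline, was at 536, 564 and 525 CPM in lox/lox mice and at 422, 698, 449 and 852 CPM in I-KO mice. The controls lay close together and the I-KO mice spread to both sides of them, I-KO 4 and I-KO 2 above and I-KO 1 and I-KO 3 below, for a log2 fold change of 0.10 (limma adjusted p = 0.980). Otc, ornithine transcarbamylase, was at 93.2, 111 and 112 CPM and 87.7, 102, 95.02 and 128 CPM, and Arg2, the mitochondrial arginase, at 299, 351 and 341 CPM and 276, 358, 346 and 397 CPM. Both overlapped, with log2 fold changes of -0.04 and 0.05 (limma adjusted p = 0.987 and 0.980), and Ass1 was not analysed here.

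Of the other aminotransferases, 7 of 11 were tested and 0 were called in either direction, with 4 above and 3 below 0 and a median of 0.02. The list also held Phgdh and Psph, the dehydrogenase and the phosphatase of serine synthesis, with log2 fold changes of -0.20 and -0.076 (limma adjusted p = 0.954 and 0.962). The list was counted without them after the values were seen. With them, 4 genes were above and 5 below 0, with a median of -0.02. Ccbl1, glutamine transaminase K, was at 61.3, 63.9 and 61.4 CPM in lox/lox and at 79.9, 61.0, 95.7 and 82.4 CPM in I-KO mice. I-KO 2 lay with the controls and the other I-KO mice above them (log2 fold change 0.34, limma adjusted p = 0.954). Of glutathione synthesis and the gamma-glutamyl cycle, 7 of 8 were tested and 0 were called in either direction, with 5 above and 2 below 0 and a median of 0.15. Ggct, gamma-glutamylcyclotransferase, was at 4.05, 3.90 and 3.73 CPM against 3.78, 2.83, 3.28 and 2.65 CPM, with only I-KO 1 in the control range (log2 fold change -0.25, limma adjusted p = 0.954).

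Of the mitochondrial carriers of glutamate, aspartate, malate and ornithine, 6 of 8 were tested and 0 were called in either direction, with 5 above and 1 below 0 and a median of 0.02. Slc1a5 of the same list, a glutamine transporter of the plasma membrane, was counted apart after the values were seen, with a log2 fold change of -0.080 (limma adjusted p = 0.962). Slc25a22, a mitochondrial glutamate carrier, was at 285, 204 and 228 CPM against 303, 249, 337 and 223 CPM, which overlapped (log2 fold change 0.21, limma adjusted p = 0.954). Of the amino acid stress response, the ATF4 program, 19 of 21 were tested and 0 were called in either direction, with 10 above and 9 below 0 and a median of 0.04. Its members at an unadjusted p below 0.05 pointed in opposite directions. Trib3, a pseudokinase induced by stress, was at 9.68, 8.62 and 7.19 CPM in lox/lox and 12.2, 11.2, 13.1 and 8.72 CPM in I-KO mice (log2 fold change 0.37, limma adjusted p = 0.954). Slc7a11, the cystine and glutamate exchanger, was at 3.51, 3.95 and 4.28 CPM against 3.74, 2.44, 3.07 and 2.77 CPM (log2 fold change -0.30, limma adjusted p = 0.954).

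**Figure D5:**
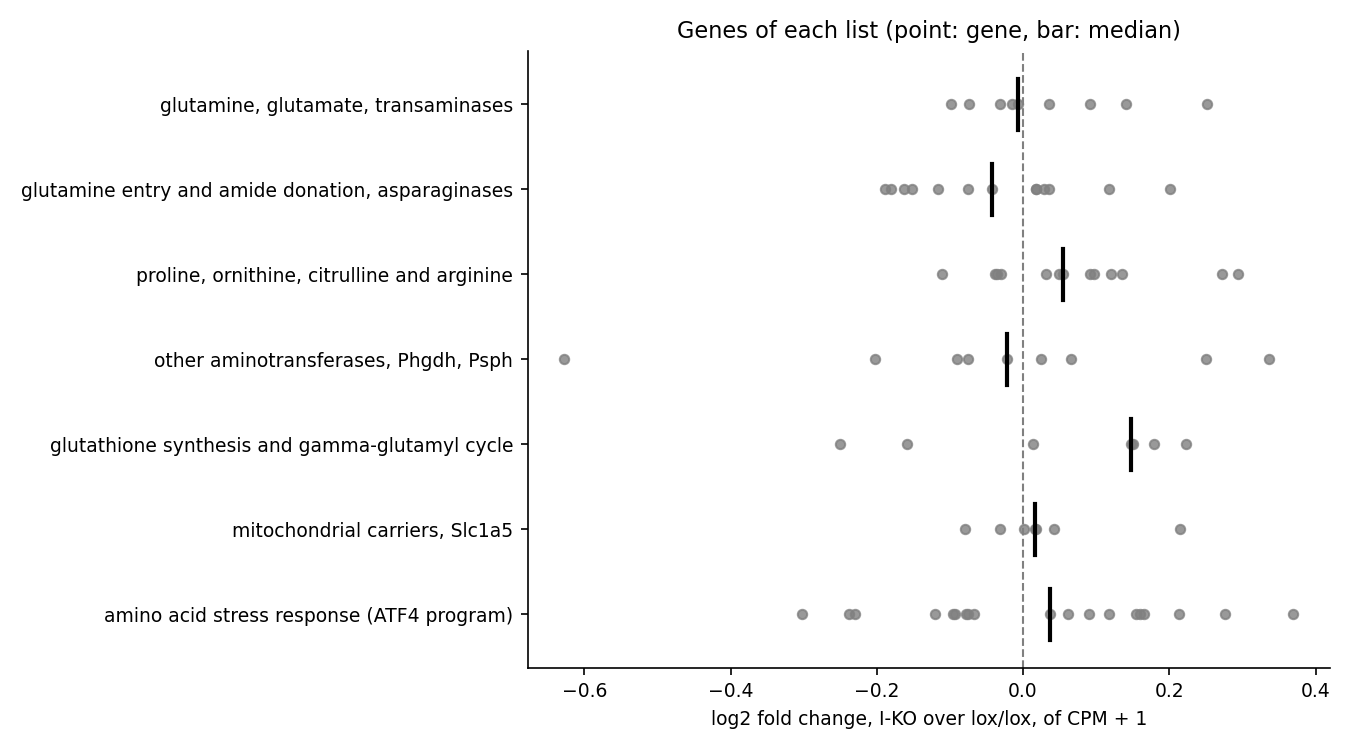
Log2 fold change, I-KO over lox/lox, of every tested gene of the 9 genes and of the 6 lists around them (grey points), with the median of each as a black bar. The rows of aminotransferases and of carriers hold Phgdh, Psph and Slc1a5 as well. The medians lie between -0.04 and 0.15, and no gene shown passed an adjusted p of 0.05.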

How the data were processed

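Duodenal RNA of 3 lox/lox and 4 I-KO mice, grouped by the genotype in the labels, was sequenced from stranded mRNA libraries with 100 base single reads. The submitters' processing notes name FastQC 0.11.2, TopHat2 2.0.13, Picard 1.80, HTSeq 0.6.1, edgeR and the mm10 genome, with no strand setting for the counting. The authors deposited 1 table of signal values, counts per gene scaled to an adjusted library size and given to 2 decimals, and 1 line without a gene was dropped. Reads per library were estimated from the step between low values. In every pair of replicates the counts estimated in this way differed beyond sampling noise (chi-square of 13.5 or more per degree of freedom).

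Log2(value + 1) was fitted with limma 3.58.1 (R 4.3.3) on genotype over genes above 1 in at least 3 libraries, two-sided, with Benjamini-Hochberg adjustment over all of them. Single genes and ratios were compared by a two-sided exact permutation over 35 splits, and relations by one over 5040 orders. Exon lengths and coordinates come from GENCODE M21. The labels say biological replicate, without naming animals or cages, and p-values measure the spread between these samples.

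The members and lists were chosen with earlier results of these data known, and the relations after their values were seen. All 9 members and Ppara are named, with the genes of each list at an unadjusted p below 0.05 (at most 3), or else the 1 with the smallest p, with Otc, Cps1 and Arg2 as neighbours (another neighbour is not reported here), and with the 2 highest genes of each marker list (for liver Serpina1b and Apoh, at 2.20 CPM or less). Alternatives were a pseudocount of 0.5, an intensity trend, no filter, scaling by column totals or by median-of-ratios factors, a replicate block, each library left out and both libraries with acinar reads left out.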

Additional observations from a re-analysis of the deposited data

Results flagged for a closer look

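In the 4 I-KO mice, the gap of the most distant mouse to its nearest neighbour was set against the range of the group, with the limit of Dixon at 95%. Of 23 quantities checked, 2 passed it where chance gives 1.15, and none of the 9 genes did. Asrgl1 in I-KO 4 was at 5.50 CPM and the 3 others were at 4.40 to 4.56 CPM (0.855 of the range). The pancreatic acinar sum without Zg16 in I-KO 1 was 539 CPM against 99.9 to 124 CPM (0.945 of the range).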

How the results depend on the processing

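Under the 14 alternatives of the fit, 0 of the 9 genes and 0 genes of the lists were called, the smallest adjusted p of any of the 9 was 0.694, and all genes gave 3 to 5 calls. Glud1, Gpt and Got2 kept their direction under each, and both transaminase ratios kept theirs under 11. Of 126 fold changes of the 9 genes under alternatives, 21 changed sign. These counts hold settings that could not add a check of direction. Fold changes without the filter and with the intensity trend equal the main ones, and the replicate block repeats those without I-KO 4. With column totals, which moved the median of all genes by -0.03, Got1 was at -0.0012. Without both libraries with acinar reads (lox/lox 2 and I-KO 1), Glul was at 0.013 and Got1 at -0.065. With 1 library left out, log2 fold changes ran from 0.041 (without lox/lox 3) to 0.26 (without lox/lox 1) for Gpt, 0.13 to 0.37 for Glud1, -0.12 to -0.074 for Got2, -0.081 to 0.079 for Glul, -0.15 to 0.0055 for Gpt2, -0.049 to 0.15 for Got1, -0.20 to 0.055 for Asns, -0.053 to 0.20 for Oat and -0.11 to 0.14 for Aldh18a1. The log2 difference of Got1 to Got2 ran from 0.027 (without lox/lox 3) to 0.26 (without lox/lox 1), and that of Gpt to Gpt2 from 0.16 to 0.28. The cause was not tested, beyond fewer samples. The replicate block, in which I-KO 4 has no partner and adds nothing, gave 0.055 for Asns and -0.053 for Oat and 0 calls among the 9 genes. Deviations of mice with the same number correlated at -0.01, 0.18 and -0.0092, and those of mice with different numbers at -0.35 to 0.28. Not every mouse correlated best with its own number. With 3 or 4 mice per group these values cannot show or exclude that the labels' numbers pair the mice. Tests on counts with edgeR were not run, because in 5 libraries under 95% of low values lay within 0.1 step of a whole read. Within the rounding of the deposited values, 100% of low values lay on a whole read in each library. The reads per library and the chi-square of replicates are estimates that rest on the same step. Depth bears most on Gpt2, at 4.26 to 5.53 CPM, where 1 read is worth 0.0393 to 0.0530 CPM.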
